A study of Homo sapiens with 12 samples.

Results

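Aminoacyl-tRNA synthetases attach each amino acid to its transfer RNA (tRNA), and 39 of their genes were followed here among the 34318 genes with a transcript in the deposited table. The set was chosen by name: 20 genes for enzymes of the cytosol, 16 for enzymes of the mitochondria and 3 for scaffold proteins that hold several cytosolic enzymes together. GARS1 and KARS1 encode both the cytosolic and the mitochondrial enzyme for their amino acid and were counted as cytosolic. All 39 genes had at least 1 row in the table, and 38 passed the filter on low counts. The exception was VARS2, the mitochondrial valine enzyme, whose matched rows were listed at 0 TPM or close to it in every library.

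The cells were HEK293T, an established human embryonic kidney line, and 12 messenger RNA libraries fell into 4 groups of 3. The labels give this cell line for all 12, although the titles of the compound libraries say only 293. In the siRNA experiment, cells were transfected with a lipid reagent and collected after 2 days; the siRNA was either a control (siControl) or directed at POLR3A (siPOLR3A). In the compound experiment, cells were held for 4 hours in 0.1% DMSO, the solvent, or in 25 µM ML60218, an inhibitor of RNA polymerase III. The question was what depletion or inhibition of this polymerase does to mRNAs. Nothing in the labels says whether replicates were separate cultures, so p-values measure the spread between libraries, which may be technical.

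RNA polymerase III makes the tRNAs that the synthetases charge, and POLR3A is its largest subunit. Each synthetase recognises its own tRNAs and spends ATP to join the matching amino acid to the end of the molecule. Mitochondria translate their own few mRNAs with a separate set of tRNAs, and most of their synthetases come from separate nuclear genes, marked here by a final 2 in the symbol. When tRNAs stay uncharged, the kinase GCN2 (EIF2AK4) is switched on and the transcription factor ATF4 is made, which raises transcription of amino acid enzymes, transporters and many cytosolic synthetases. The tRNAs themselves were not analysed here.

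The libraries held between 37008325 and 49479476 estimated reads. POLR3A itself stood at 92.2, 93.5 and 86.8 CPM (estimated reads divided by the scaled library size) in siControl and at 19.3, 19 and 14.6 CPM in siPOLR3A, so it was lower in all depleted libraries (log2 fold change -2.36, SE 0.108, adjusted p = 1.94e-05). In DMSO it stood at 112, 118 and 108 CPM and in ML60218 at 85.1, 89 and 85.3 CPM (log2 fold change -0.38, or -0.17 with neighbouring unmatched rows). The labels call the cells epithelial kidney cells. KRT18 (24.5 to 36.7 TPM) and SIX2 (15.5 to 22.2 TPM) were detected in every library, but KRT19, PAX8, SLC34A1 and CUBN were at or near 0. The neurofilament genes NEFL and NEFM were detected at 32.7 to 102 TPM, while PTPRC and CDH5, markers of immune and endothelial cells, were at or near 0. In bulk RNA, fewer cells of a kind and less RNA per cell cannot be told apart.

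Levels between genes were compared as TPM, which divides by transcript length. In the DMSO group the median cytosolic enzyme stood at 130 TPM and the median mitochondrial enzyme at 21.1 TPM. RARS1, the arginine enzyme, was highest at 219 ± 7.48 TPM (SD, n = 3), followed by TARS1 for threonine at 189 ± 3.95 and MARS1 for methionine at 176 ± 2.64. These neighbours in the order were apart by more than their spread, but the order depended on which rows were summed. Over protein-coding rows RARS1 and TARS1 both stood at 177 TPM and MARS1 at 102 TPM, below IARS1 at 156 TPM. With neighbouring rows IARS1 stood at 186 TPM, above MARS1. Lowest among the cytosolic enzymes were CARS1 for cysteine at 18.7 ± 2.49 TPM and TARS3 at 17.3 ± 1.11 TPM, which did not differ beyond their spread. TARS3 is a paralogue of TARS1 and also charges tRNA with threonine.

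Among the mitochondrial enzymes, IARS2 for isoleucine stood apart at 141 ± 5.99 TPM. TARS2 for threonine followed at 53 ± 1.84 TPM and YARS2 for tyrosine at 39.5 ± 0.62 TPM. A processed transcript of 489 bases held 41.6 ± 1.76% of the YARS2 value, and over protein-coding rows YARS2 stood at 22.2 ± 1.48 TPM, below LARS2 at 25.1 TPM. PARS2 for proline was lowest of those tested, at 5.39 ± 0.31 TPM. Some members are understated by these levels, because rows of the table that could not be matched by identifier lie among their own rows. Such rows held 99.6% of the reads that could belong to VARS2, 90.4% for AIMP1, 56.8% for EARS2 and 49.2% for RARS2. With them VARS2 stood at 0.318 ± 0.0731 TPM in DMSO.

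After POLR3A depletion the largest falls among the synthetases were in 3 enzymes, TARS2, LARS2 and TARS3, while the balance of smaller rises and falls depended on the scaling. Of the 20 cytosolic enzymes, 6 rose, 10 fell and 4 did not pass the test, with a median log2 fold change of -0.06. Of the 15 mitochondrial enzymes tested, 0 rose, 6 fell and 9 did not pass, with a median of -0.03. None of the 3 scaffold genes passed. The balance turned under 2 other scalings: with total counts 9 cytosolic enzymes were called higher and 7 lower, and 5 mitochondrial ones higher and 5 lower. With upper quartile scaling the counts were 9 and 7, and 5 and 3. Over all 15404 genes tested, 56.6% were called at an adjusted p under 0.05, 27.4% as higher and 29.2% as lower, and the median log2 fold change was 0.005. A call by itself therefore sets no member apart from other genes.

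**Figure D1:**
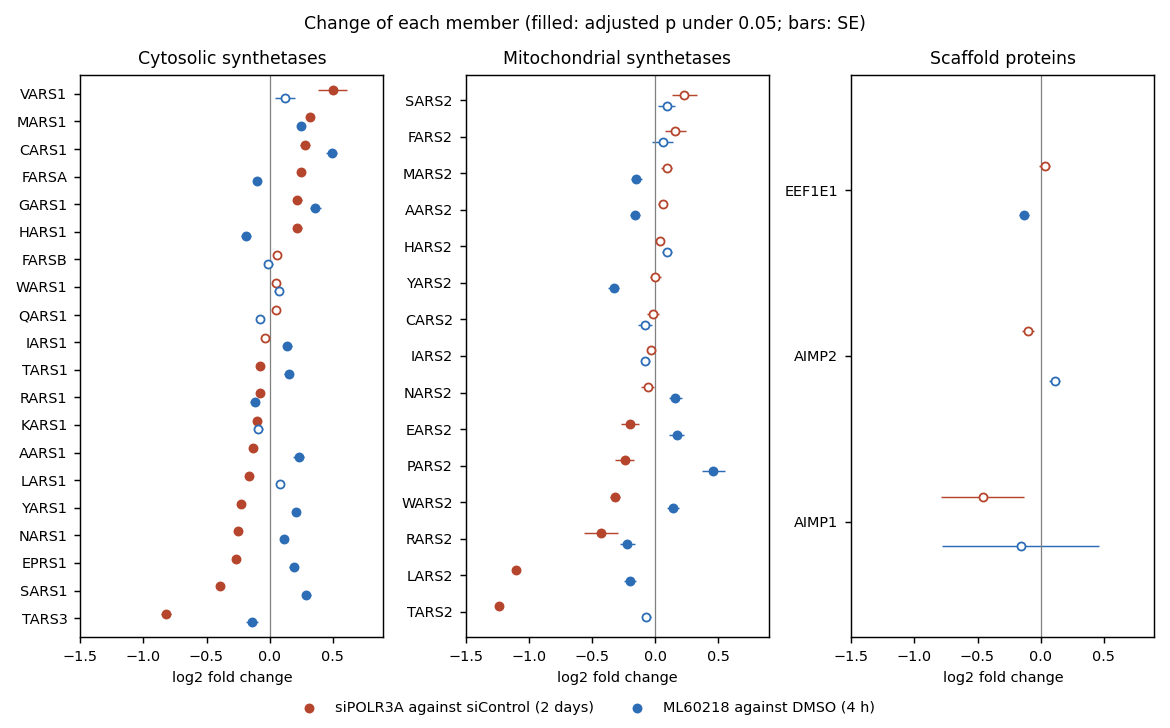
Log2 fold change of each tested member after POLR3A siRNA (red) and ML60218 (blue), in panels for cytosolic enzymes, mitochondrial enzymes and scaffold proteins. Points are estimates from 3 libraries a group, bars are 1 SE, and filled points passed an adjusted p of 0.05. TARS2, LARS2 and TARS3 lie far to the left of the other members in red only.

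TARS2, on chromosome 1, stood at 101, 103 and 103 CPM in siControl and at 42.8, 44 and 43.2 CPM in siPOLR3A. The groups did not overlap (log2 fold change -1.24, SE 0.0295, adjusted p = 4.91e-13 in edgeR's quasi-likelihood test with Benjamini-Hochberg adjustment). LARS2, the mitochondrial leucine enzyme, went from 87.7, 91.1 and 91 CPM to 42.4, 41.5 and 42.1 CPM (log2 fold change -1.10, SE 0.0311, adjusted p = 2.4e-12). All 3 depleted libraries were thus below 0.5 of the lowest control for each of these 2 mitochondrial genes. TARS3 went from 50, 53.4 and 51 CPM to 29.2, 29.5 and 28.7 CPM (log2 fold change -0.82, SE 0.038, adjusted p = 3.4e-10).

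The main cytosolic enzymes for threonine and leucine had smaller changes. TARS1 stood at 327, 328 and 336 CPM in siControl and at 315, 311 and 310 CPM in siPOLR3A (log2 fold change -0.08, adjusted p = 0.00541). LARS1 for leucine went from 575, 555 and 584 CPM to 506, 525 and 506 CPM (log2 fold change -0.16). For threonine and leucine, the cytosolic change lay above the mitochondrial one by 1.16 and 0.94 on the log2 scale.

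The other falls among cytosolic enzymes were smaller. SARS1 for serine went from 221, 219 and 221 CPM to 169, 170 and 164 CPM (log2 fold change -0.39, SE 0.0237, adjusted p = 5.53e-09). EPRS1, a fused enzyme that charges glutamate and proline tRNAs, went from 661, 671 and 655 CPM to 542, 567 and 541 CPM (log2 fold change -0.27, SE 0.024). NARS1 for asparagine (-0.25), YARS1 for tyrosine (-0.23), LARS1 (-0.16), AARS1 for alanine (-0.13), KARS1 for lysine (-0.10), RARS1 (-0.08) and TARS1 (-0.08) completed the cytosolic falls. In all of these the 3 depleted libraries lay below the 3 controls. These enzymes were picked as called on the same libraries, so the separation is no added support. Its share over all genes was not counted.

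NARS1 stood at 259, 270 and 267 CPM in siControl and at 219, 226 and 223 CPM after the siRNA. YARS1 went from 245, 257 and 259 CPM to 217, 218 and 212 CPM. AARS1 went from 299, 299 and 295 CPM to 279, 268 and 266 CPM. Among the mitochondrial enzymes, WARS2 for tryptophan fell from 41.9, 40.4 and 41 CPM to 32.2, 33.2 and 33.8 CPM (log2 fold change -0.32, SE 0.0384).

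RARS2 for arginine stood at 19.7, 26 and 27.2 CPM in siControl and at 18.1, 19.4 and 16.6 CPM in siPOLR3A. Its log2 fold change of -0.43 (SE 0.137, adjusted p = 0.0404) became -0.16 when the neighbouring unmatched rows were added. PARS2 went from 8.77, 9.51 and 9.31 CPM to 7.45, 7.76 and 8.16 CPM (log2 fold change -0.24, adjusted p = 0.0137). EARS2 for glutamate went from 23.5, 27.8 and 23.6 CPM to 22.5, 22.4 and 20.4 CPM (log2 fold change -0.20, adjusted p = 0.0283).

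The 6 synthetases that rose after the siRNA were all cytosolic. MARS1 went from 213, 215 and 213 CPM to 267, 264 and 267 CPM (log2 fold change 0.32, SE 0.0215, adjusted p = 2.01e-08). CARS1 went from 39.4, 42 and 41.9 CPM to 51.3, 50.9 and 47.4 CPM (log2 fold change 0.28). FARSA, the catalytic subunit of the cytosolic phenylalanine enzyme, went from 96.2, 96.2 and 101 CPM to 119, 116 and 115 CPM (log2 fold change 0.25). Its partner subunit FARSB did not pass (0.06, adjusted p = 0.0669), so the 2 subunits of 1 enzyme were called differently, and a difference between them was not tested.

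HARS1 for histidine stood at 93.3, 101 and 102 CPM in siControl and at 119, 112 and 114 CPM after the siRNA (log2 fold change 0.22). GARS1 for glycine went from 163, 173 and 181 CPM to 208, 194 and 199 CPM (log2 fold change 0.22, SE 0.0393, adjusted p = 0.000789). VARS1 for valine had the largest estimate, 0.50, but also the widest spread of the cytosolic enzymes. It stood at 107, 92.6 and 86.1 CPM in siControl and at 135, 122 and 146 CPM in siPOLR3A (SE 0.115, adjusted p = 0.0201), and rests on 1 transcript row.

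**Figure D2:**
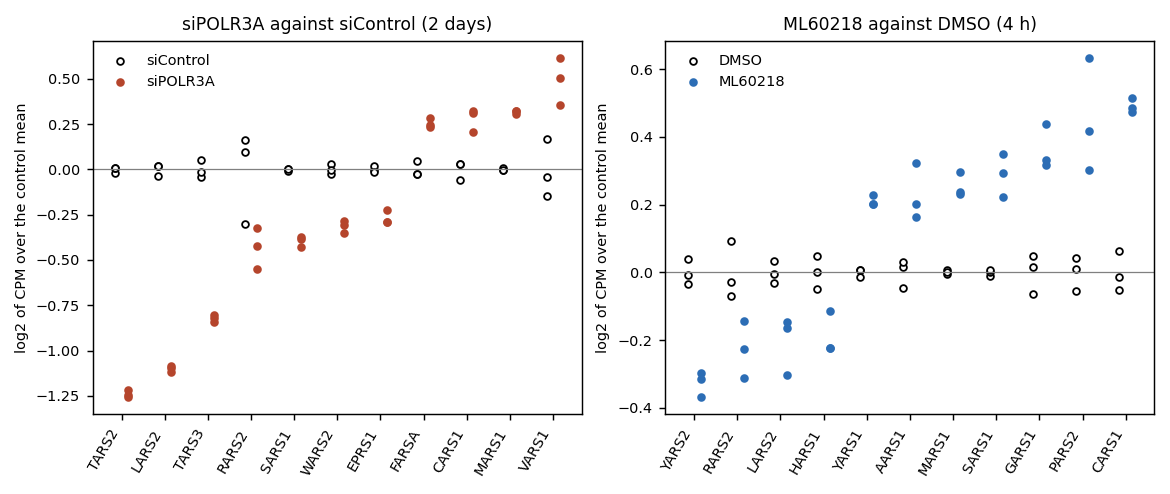
Values by library of the members with the largest changes, as log2 of CPM over the mean of the 3 control libraries, for the siRNA (left) and ML60218 (right). Open points are control libraries and filled points treated libraries. TARS2, LARS2 and TARS3 form tight groups well below their controls on the left, whereas VARS1 and RARS2 are spread.

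The members that did not pass after the siRNA are given by their estimates. Among cytosolic enzymes, the log2 fold changes were -0.04 for IARS1 (isoleucine), 0.05 for QARS1 (glutamine) and 0.05 for WARS1 (tryptophan). Among mitochondrial ones they were 0.06 for AARS2, -0.02 for CARS2, 0.16 for FARS2, 0.04 for HARS2, -0.03 for IARS2, 0.09 for MARS2, -0.06 for NARS2, 0.23 for SARS2 and 0.00 for YARS2 (32.1, 32.3 and 32.4 CPM against 33.8, 30.8 and 32.1 CPM, which overlapped). The scaffold genes gave -0.10 for AIMP2 and 0.03 for EEF1E1. AIMP1 gave -0.46 (SE 0.331, adjusted p = 0.292) from few matched reads. With neighbouring rows it gave -0.02 (adjusted p = 0.638), and with edge rows too, an alternative added after seeing the data, 0.07 (adjusted p = 0.019).

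Leaving out 1 library ended 5 of these calls. RARS2 was no longer called without siControl replicate 2 or 3 or without any of the siPOLR3A replicates (adjusted p up to 0.122), EARS2 without siControl replicate 2 or siPOLR3A replicate 2 or 3 (up to 0.127), and VARS1 without siControl replicate 2 or 3 or siPOLR3A replicate 1 (up to 0.073). PARS2 (without siControl replicate 2 or siPOLR3A replicate 1, up to 0.0531) and RARS1 (without siControl replicate 3 or siPOLR3A replicate 1, up to 0.0563) were also lost. The call of AARS1 was lost with neighbouring and edge rows (adjusted p = 0.146). The small falls of TARS1, KARS1 and RARS1 were not called under upper quartile or total-count scaling, and under these 48.4% of all calls being higher became 58.7% and 57%.

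The 3 genes with the largest falls share a feature of sequence that was looked up after an earlier reading of these data had picked it. The letters GAGGGA occur in the 3′ untranslated region (UTR) of the leading coding transcript of TARS3, LARS2 and TARS2, and in that of no other member. A 6-letter match of this kind is the size of site that the seed of an siRNA can pair with. The sequence of the siRNA is not given in the sources used here. The sites are printed on the transcript strand with the 6 letters in capitals, from GENCODE release 29 on GRCh38. They lie at chr1:150507217-150507246 (TARS2, plus strand), chr3:45548668-45548697 (LARS2, plus strand), and chr15:101654204-101654233 and chr15:101653629-101653658 (TARS3, minus strand).
TARS2: accccacaaaagGAGGGAagctgtagctgt
LARS2: ttaatatttaatGAGGGAaggtaggggaga
TARS3 first site: ttttttaaatagGAGGGAaaatcttatttt
TARS3 second site: agttaacttcctGAGGGAtgtgaacagtga

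The letters were searched on the transcript strand only. They are common: 34.7% of 14084 tested genes with an annotated 3′ UTR held at least 1 copy. The median 3′ UTR was 310 bases long for the cytosolic members, 684 for the mitochondrial members and 1052 for all those genes. Lengths were not compared between genes with and without the letters, so the shares below are not adjusted for length. Among tested genes, 38.8% of those with the letters and 27.1% of those without were called lower after the siRNA, and 24.8% and 30% higher. After ML60218 the shares were 23.2% and 22.5% lower, and 19.3% and 17.5% higher. These 3 members stood at -0.07 (TARS2, not called), -0.20 (LARS2) and -0.14 (TARS3) after ML60218. Since the letters were picked from these data, the counts are a description and no independent support, and their part in the falls was not tested.

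ML60218 raised more cytosolic synthetases than it lowered, while mitochondrial ones were called in both directions. Of the 20 cytosolic enzymes, 10 rose, 4 fell and 6 did not pass, with a median log2 fold change of 0.11. Of the 15 mitochondrial enzymes tested, 4 rose, 5 fell and 6 did not pass, with a median of -0.07. With total counts the mitochondrial calls were 5 higher and 2 lower, and with upper quartile scaling 5 and 4. Of the 3 scaffold genes, EEF1E1 fell and 2 did not pass. Over all 15461 genes tested, 39% were called, 18.1% as higher and 20.9% as lower, with a median log2 fold change of 0.005.

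CARS1 had the largest rise of the cytosolic enzymes. It stood at 41.9, 39.7 and 38.7 CPM in DMSO and at 55.7, 56.1 and 57.3 CPM in ML60218 (log2 fold change 0.49, SE 0.0436, adjusted p = 0.000118). GARS1 went from 223, 228 and 211 CPM to 278, 299 and 275 CPM (log2 fold change 0.36, SE 0.0424, adjusted p = 0.00031). SARS1 went from 221, 223 and 224 CPM to 260, 284 and 273 CPM (0.29, SE 0.0363). In each of them the lowest treated library was above the highest control, which a call on these same libraries makes likely.

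MARS1 went from 242, 240 and 241 CPM to 283, 296 and 284 CPM (0.25, SE 0.0303), but over its annotated protein-coding rows alone the estimate was 0.09 (adjusted p = 0.142). AARS1 went from 194, 186 and 196 CPM to 215, 240 and 221 CPM (0.23, SE 0.0431), and with neighbouring unmatched rows its estimate was 0.36. YARS1 went from 230, 233 and 233 CPM to 267, 272 and 267 CPM (0.21, SE 0.0283). EPRS1 stood at 627, 647 and 626 CPM in DMSO and at 691, 748 and 724 CPM in ML60218 (0.19).

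TARS1 (445, 446 and 457 CPM against 475, 520 and 500 CPM, 0.15), IARS1 (0.14) and NARS1 (273, 276 and 274 CPM against 292, 304 and 291 CPM, 0.11) were the smallest of the cytosolic rises. Over protein-coding rows alone, IARS1 stood at -0.02 (adjusted p = 0.706). The enzymes that did not pass were VARS1 (0.12), LARS1 (0.08, or 0.15 and called with neighbouring rows), WARS1 (0.07), FARSB (-0.01), QARS1 (-0.08) and KARS1 (-0.09).

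The 4 cytosolic falls with ML60218 were small. HARS1 went from 114, 118 and 122 CPM to 109, 101 and 101 CPM (log2 fold change -0.19, SE 0.0408, adjusted p = 0.00569). TARS3 (-0.14), RARS1 (-0.12) and FARSA (-0.10) had adjusted p between 0.0176 and 0.0317, and these 3 were not called under upper quartile or total-count scaling. FARSA stood at 116, 117 and 117 CPM in DMSO and at 107, 111 and 108 CPM in ML60218. HARS1 was called in every setting tried.

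Among the mitochondrial enzymes PARS2 had the largest rise with the compound. It went from 9.03, 8.82 and 8.44 CPM to 10.8, 11.7 and 13.6 CPM (log2 fold change 0.46, SE 0.0925, adjusted p = 0.00381). YARS2 had the largest fall, from 38.6, 36.7 and 37.4 CPM to 30.6, 30.2 and 29.1 CPM (-0.33, SE 0.0453, adjusted p = 0.000651). Neither overlapped between groups, which a call on these same libraries makes likely.

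RARS2 went from 26.6, 27.4 and 29.8 CPM to 25.3, 22.5 and 23.9 CPM (-0.22), and LARS2 from 98.4, 101 and 96.6 CPM to 88.1, 89.1 and 80 CPM (-0.20). The remaining mitochondrial falls were AARS2 (-0.16) and MARS2 (-0.15). The other rises were EARS2 (25.3, 28.9 and 29.1 CPM against 30.8, 30.8 and 32.3 CPM, 0.17), NARS2 (0.16) and WARS2 (40.4, 40.2 and 39.8 CPM against 42, 46.5 and 44.5 CPM, 0.14). With neighbouring rows EARS2 stood at 0.07 and was not called.

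The mitochondrial enzymes that did not pass were HARS2 (0.09), SARS2 (0.09), FARS2 (0.06), TARS2 (-0.07), IARS2 (-0.08) and CARS2 (-0.08). TARS2 stood at 94.7, 94.5 and 93.6 CPM in DMSO and at 91, 92.5 and 86.9 CPM in ML60218. EEF1E1, a scaffold protein also known as p18, went from 75.7, 74.8 and 77.5 CPM to 68.7, 72.6 and 67.5 CPM (-0.13, adjusted p = 0.0289). The scaffold genes AIMP2 (0.11) and AIMP1 (-0.16) did not pass.

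Several of the smaller ML60218 calls were lost in fits on 5 libraries, with the sign of the estimate kept in each. Over all genes the calls went from 6029 to between 4159 and 4396 when a DMSO library was left out. They went up to 6501 without ML60218 replicate 1, and down to 5131 without replicate 2 and 4965 without replicate 3. Without ML60218 replicate 1, AIMP2, LARS1 and QARS1 were called as well. EARS2 was not called without any 1 of the 6 libraries (adjusted p up to 0.181) and WARS2 without any DMSO replicate or ML60218 replicate 2 or 3 (up to 0.125). TARS3 was lost without replicate 2 or 3 of either group (up to 0.136), NARS2 without DMSO replicate 1 or 3 or ML60218 replicate 2 or 3 (up to 0.133), and EEF1E1 without any DMSO replicate or ML60218 replicate 3 (up to 0.111). FARSA was lost without any DMSO replicate (up to 0.0963), and MARS2 and NARS1 without any DMSO replicate or ML60218 replicate 2 (up to 0.0842 and 0.0834). RARS1 was lost without DMSO replicate 2 or 3 (0.0842), RARS2 without DMSO replicate 3 or ML60218 replicate 2 (0.08), IARS1 without DMSO replicate 1 or 3 (0.0615), TARS1 without DMSO replicate 1 or 2 (0.0563) and AARS2 without DMSO replicate 3 (0.0532). Of all genes called, 46.4% were higher, which became 58.6% under upper quartile and 67% under total-count scaling.

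Matched by amino acid, 16 of 17 pairs of a cytosolic and a mitochondrial enzyme could be measured, valine being the exception. Some pairs share an enzyme: EPRS1 stands in 2 pairs, and FARS2 is set against both FARSA and FARSB. With ML60218 the cytosolic change lay above the mitochondrial one in 10 pairs, with a median pair difference of 0.15. The largest of these differences were 0.58 for cysteine (CARS1 and CARS2), 0.54 for tyrosine and 0.40 for methionine. Differences in the other direction were -0.28 for histidine, -0.27 for proline and -0.16 for phenylalanine with FARSA.

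In the 3 ML60218 libraries, the median cytosolic member stood at 0.081, 0.168 and 0.099 on the log2 scale over the DMSO mean, and the median mitochondrial member at -0.058, -0.027 and -0.099. The cytosolic median was thus the higher one in each treated library. After the siRNA the cytosolic change lay above the mitochondrial one in 8 of 16 pairs, and the class medians differed by -0.02. The per-library differences were -0.041, 0.042 and -0.028 and took both signs.

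Promoter windows were searched for letters of a known stress element, which some cytosolic enzymes and 1 mitochondrial enzyme held. ATF4 and its partners of the C/EBP family are known to bind a composite element, written here as TGATGNAA, where N is any base. It was searched on both strands of RefSeq promoter windows (GRCh38.p14), which run from 250 bases before to 50 after an annotated start and were given for 33 of the 39 members. It was found in 7 of 16 cytosolic enzymes with a window (43.8%), in 1 of 14 mitochondrial enzymes (7.14%) and in 0 of 3 scaffold genes. Of 27305 genes with a window, 4.46% held it. The narrower letters TGATGCAA, which the first search includes, were found in 6 cytosolic enzymes (37.5%), in 0 mitochondrial ones and in 1.08% of genes.

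The matches are shown with 11 bases on either side, on the strand of the gene, with the matched letters in capitals. A match on the opposite strand is printed as its reverse complement.
AARS1: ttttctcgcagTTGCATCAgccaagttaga
CARS1: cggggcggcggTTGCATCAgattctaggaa
GARS1: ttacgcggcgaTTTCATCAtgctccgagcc
IARS1: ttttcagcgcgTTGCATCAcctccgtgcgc
MARS1: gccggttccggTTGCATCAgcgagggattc
NARS1: tctacgctctcTGATGCAAcgccggaatcg
TARS1: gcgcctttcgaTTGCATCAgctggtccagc
YARS2: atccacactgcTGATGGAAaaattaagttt

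Of the 7 cytosolic matches, 6 lay close to the annotated start. Counted from the start to the first matched letter, the distances were -33 bases for GARS1, -13 for IARS1, -4 for MARS1, -2 for CARS1, 2 for TARS1 and 14 for NARS1. The match in AARS1 lay at -187 and that in YARS2 at -197. In all of them but NARS1 and YARS2 the element lay on the strand opposite to the gene. The positions are chr16:70289675-70289704 for AARS1, chr11:3057407-3057436 for CARS1 and chr12:57488053-57488082 for MARS1, to name 3. The promoter windows of HARS1 and HARS2, which are transcribed away from each other, share 184 bases, and neither holds the letters.

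All 7 cytosolic enzymes with the letters rose with ML60218, with a median log2 fold change of 0.231, although IARS1 and MARS1 did not pass over their protein-coding rows alone. Of the 9 cytosolic enzymes with a window but without the letters, 2 rose (SARS1 and EPRS1) and 3 fell, with a median of -0.077. LARS1, TARS3, VARS1 and YARS1 had no window and were not searched. Of these, YARS1 rose, TARS3 fell and the others did not pass. YARS2, the mitochondrial enzyme with the letters, fell. Among all tested genes with a window, 26.6% of those with the letters and 18.2% of those without were called higher with ML60218, and 31.5% and 18.3% for the narrower letters. After the siRNA, 3 of the same 7 rose (CARS1, GARS1 and MARS1), 3 fell and IARS1 did not pass, with a median of -0.039. A match describes the sequence only, and binding was not measured.

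**Figure D3:**
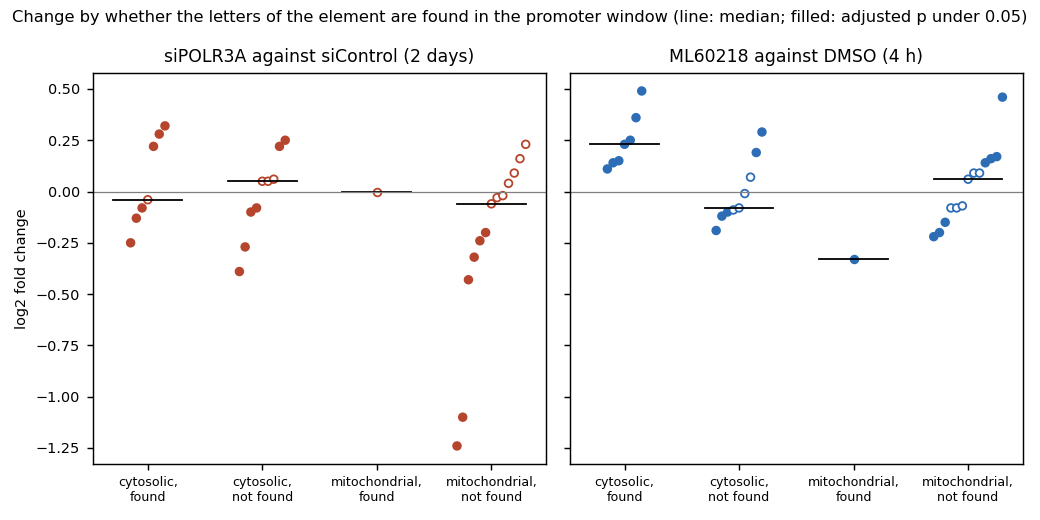
Log2 fold change of members by class and by whether the letters of the element were found in a promoter window, after the siRNA (left) and ML60218 (right). Each point is a gene, filled where the adjusted p was under 0.05, and lines are medians. On the right, all 7 cytosolic enzymes with the letters lie above 0, whereas on the left they lie on both sides.

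Most other genes of the stress response listed here were also higher with ML60218. Of 25 tested that are no synthetases, 20 rose, 1 fell (ATF5, -0.66) and 4 did not pass, with a median log2 fold change of 0.81, beside 18.1% of all genes called higher and 20.9% lower. ATF4 itself did not pass (0.14, adjusted p = 0.257), but was called at 0.36 with neighbouring rows. CHAC1, which degrades glutathione, went from 1.66, 1.63 and 1.62 CPM to 12.8, 15.8 and 15.2 CPM (3.15, SE 0.108). ATF3 (2.28) and DDIT3 (2.10), both transcription factors, followed. The largest synthetase rise, 0.49 for CARS1, was small beside these. After the siRNA, 8 of the 25 rose and 4 fell, with a median of 0.06, beside 27.4% and 29.2% of all genes. ATF4 was called higher there (0.18), and lower with neighbouring rows (-0.23). The leading genes called there were DDIT4 (-0.58), ATF5 (0.43) and PHGDH (-0.38). The sensor EIF2AK4 and its activator GCN1 rose slightly after the siRNA (0.08 and 0.18) and did not pass with ML60218 (0.07 and -0.00).

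A second readout came from the transcript rows within each gene. The share of a gene's TPM held by its annotated protein-coding rows was compared by library for members that also have other rows. Only matched rows entered these shares. Unmatched rows held 24.5% of the reads that could belong to AARS1, 15.3% for LARS1 and 12.9% for IARS1, so their shares do not cover the whole gene. With ML60218 this share was lower without overlap between the groups in 12 of 18 cytosolic enzymes, and higher without overlap in 0. It was lower in 1 of 12 mitochondrial enzymes, TARS2 (82.6, 87.2 and 84.5% against 80.8, 76.4 and 76.3%), or in 2 without DMSO replicate 2 or ML60218 replicate 1, and in 0 of 1 scaffold genes. Over 11134 tested genes with both kinds of row, 14.2% were lower and 4.94% higher without overlap. The median difference was -3.93 percentage points for the cytosolic enzymes, 0.254 for the mitochondrial ones and -0.479 for all those genes.

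MARS1 shifted most: its protein-coding rows held 59.5, 57.4 and 56.6% of its TPM in DMSO and 42, 46.3 and 43% in ML60218. Rows annotated as retained introns held 30.6 ± 1.42% in DMSO and 41.9 ± 1.71% in ML60218 (SD, n = 3). IARS1 went from 95.3, 95.2 and 94.7% to 88, 88 and 85.8%. A processed transcript of 7614 bases took up most of this, from 4.27 ± 0.198% to 11.7 ± 1.29%. GARS1 went from 96.5, 96.9 and 96.3% to 92, 93.2 and 91.2%, and its retained-intron rows from 2.74 ± 0.388% to 6.65 ± 0.89%.

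The other cytosolic enzymes with a lower share after ML60218 were TARS3 (by -8.62 points), SARS1 (-6.00), YARS1 (-5.94), RARS1 (-4.38), WARS1 (-4.37), LARS1 (-4.13), AARS1 (-2.32), TARS1 (-2.09) and HARS1 (-0.934). Those whose groups overlapped were CARS1, EPRS1, FARSA, KARS1, NARS1 and QARS1. Members that rose and members that fell were thus both among those with a lower share. WARS1 and LARS1 did not pass the test of total counts, yet their protein-coding shares went from 68.8, 72.8 and 67.7% to 66.4, 64.3 and 65.5%, and from 86.2, 85.5 and 84.7% to 83.8, 80.1 and 80.1%.

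After the siRNA the pattern was narrower. The share was lower without overlap in 6 of 18 cytosolic enzymes (FARSA, HARS1, SARS1, TARS1, TARS3 and YARS1) and in 1 of 12 mitochondrial ones (TARS2). It was higher in NARS1, FARS2 and HARS2. Over 11113 tested genes, 14.5% were lower and 7.81% higher. TARS3 went from 82.9, 75.8 and 75.1% to 68.6, 61.1 and 58.7%, SARS1 from 81.2, 77.2 and 81.6% to 71.1, 70.5 and 69.7%, and TARS2 from 79.4, 77 and 80.7% to 64.7, 63.3 and 70.7%. The protein-coding rows of TARS3, SARS1 and TARS2, which also fell in total counts, thus held a smaller part of what remained. RARS2, whose total over matched rows fell further than that of SARS1 (log2 fold change -0.43), overlapped between groups, with a difference of 1.77 points. Unmatched rows among its own held 49.2% of the reads that could belong to RARS2, and with them its fall was smaller, as given above. Retained-intron rows of TARS2 went from 13 ± 0.781% to 28.1 ± 2.95%. LARS2, which fell about as far in total, overlapped between groups (94.3, 86.3 and 90% against 93.2, 83 and 82.3%). Without siPOLR3A replicate 1, 4 mitochondrial enzymes were lower, without siControl replicate 1, 3 were, and without siPOLR3A replicate 3, 2 were.

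**Figure D4:**
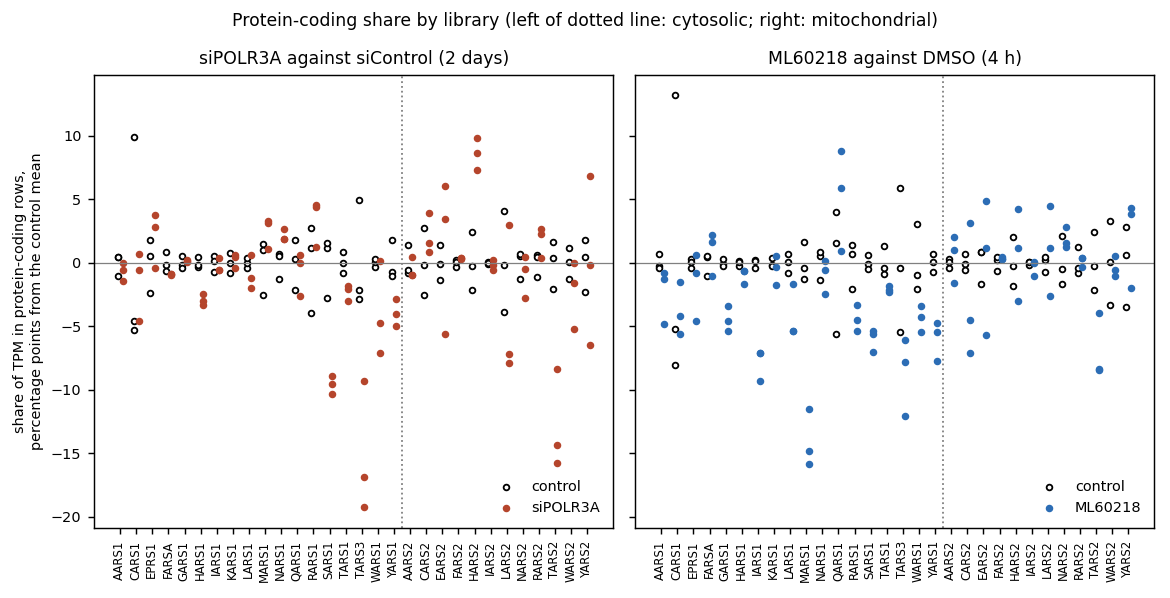
Share of TPM in annotated protein-coding rows by library, in percentage points from the control mean, for members with both coding and other rows. Open points are controls, filled points are siPOLR3A (left) or ML60218 (right), and the dotted line parts cytosolic from mitochondrial enzymes. On the right, 12 of the 18 cytosolic enzymes have all treated points below all controls, with MARS1 lowest.

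The 2 effects were set against each other in a fit of all 12 libraries, as the siRNA effect minus the ML60218 effect. Agent, time and control all differ between the experiments and cannot be told apart in it. It passed the test for 13 cytosolic enzymes (3 positive, 10 negative), 9 mitochondrial ones (3 positive, 6 negative) and 2 scaffold genes (EEF1E1 positive, AIMP2 negative). Over 15780 genes tested, 50.9% passed, 24.5% as positive and 26.4% as negative. The smallest p on the negative side belonged to TARS2 (-1.17, adjusted p = 1.61e-11), LARS2 (-0.89) and SARS1 (-0.68). On the positive side they belonged to FARSA (0.36, adjusted p = 3.54e-06), HARS1 (0.41) and YARS2 (0.33).

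Of the cytosolic enzymes, 13 were called in both experiments. Among all genes tested, 56.6% passed in the siRNA experiment and 39% in the compound experiment, so some overlap arises anyway. The share of all genes that passed in both, with equal or opposite signs, was not counted. Whether the counts of members given here set either class apart from other genes was therefore not tested. CARS1, GARS1 and MARS1 rose in both, and RARS1 and TARS3 fell in both. AARS1, EPRS1, NARS1, SARS1, TARS1 and YARS1 fell after the siRNA and rose with ML60218, and the difference passed the test for each of these 6. FARSA and HARS1 did the reverse, and their difference passed too. All these genes were picked for calls of opposite sign in the same libraries. Their difference was therefore nearly bound to pass and is no independent support. Among the mitochondrial enzymes, LARS2 and RARS2 fell in both, while EARS2, PARS2 and WARS2 fell after the siRNA and rose with ML60218. The difference for PARS2 was -0.70 (SE 0.118) and for WARS2 -0.45.

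Other differences that passed were TARS3 (-0.68), AARS1 (-0.36), EARS2 (-0.36), NARS1 (-0.35), TARS1 (-0.23), LARS1 (-0.23), NARS2 (-0.22), CARS1 (-0.21) and IARS1 (-0.17), with QARS1 (0.13), AARS2 (0.22) and MARS2 (0.24) on the positive side. MARS1 (0.07, adjusted p = 0.122) and GARS1 (-0.14, adjusted p = 0.0783, or 0.00815 with neighbouring rows) did not pass, which does not show that both treatments acted alike on them. Leaving out 1 library ended the difference for EEF1E1 (without any library but siControl replicate 3, DMSO replicates 1 and 2 and ML60218 replicate 2, adjusted p up to 0.108) and for NARS2 (without DMSO or siControl replicate 3, up to 0.0755).

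**Figure D5:**
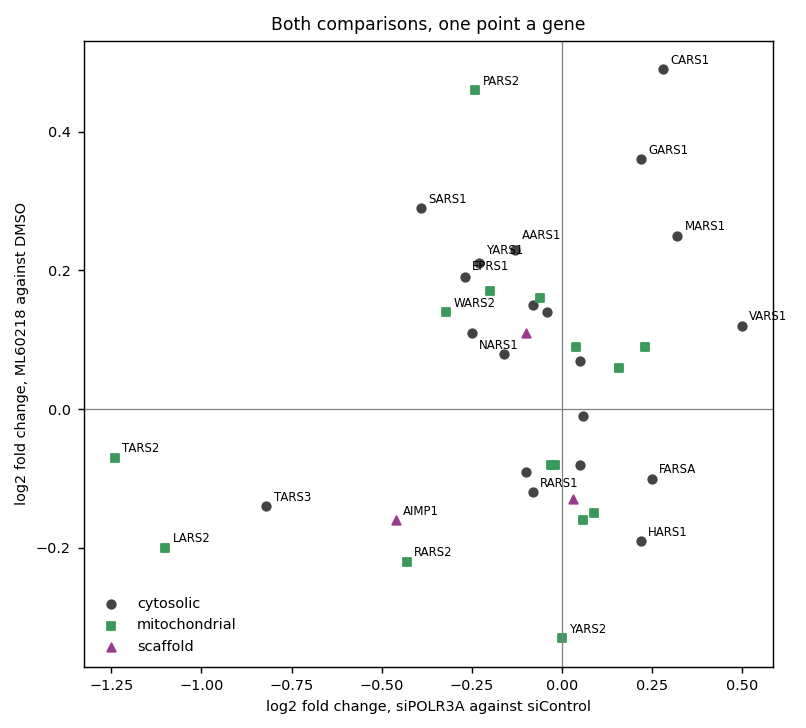
Log2 fold change after POLR3A siRNA (horizontal) against that after ML60218 (vertical), 1 point a gene, with symbols for cytosolic, mitochondrial and scaffold members. SARS1, EPRS1, YARS1, AARS1, NARS1, PARS2 and WARS2 lie in the upper left, CARS1, GARS1 and MARS1 in the upper right, and HARS1 and FARSA in the lower right.

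Members of the multi-synthetase complex were called in both directions in each experiment. Of its 10 members, EPRS1, KARS1, LARS1 and RARS1 fell after the siRNA, MARS1 rose and 5 did not pass. With ML60218, EPRS1, IARS1 and MARS1 rose, RARS1 and EEF1E1 fell, and 5 did not pass. Over all genes, 27.4% rose and 29.2% fell after the siRNA, and 18.1% and 20.9% with ML60218. Such small counts say little about the complex. The 7 enzymes of the complex had a median of 0.08 with ML60218, and the 13 cytosolic enzymes outside it 0.12. KARS1 encodes the cytosolic and the mitochondrial lysine enzyme from alternative transcripts. Its 2 leading protein-coding rows held 82.4 ± 0.744% and 10.6 ± 0.528% of its TPM in siControl and 82.6 ± 0.784% and 10.1 ± 1.72% after the siRNA, shares that overlapped.

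Genes that act beside the synthetases, in editing, amidation and delivery of charged tRNAs, were also mixed. Of 16 tested, 5 rose and 5 fell after the siRNA, and 4 rose and 4 fell with ML60218. Over all genes, 27.4% rose and 29.2% fell after the siRNA, and 18.1% and 20.9% with ML60218. Whether this list differs from all genes was not tested. PTRH2, a peptidyl-tRNA hydrolase of mitochondria, went from 24.4, 26.4 and 24.7 CPM to 39.3, 38 and 39.4 CPM after the siRNA (0.63) and fell with ML60218 (-0.31). DTD1, which removes D-amino acids from tRNAs, fell after the siRNA (-0.60), and SEPSECS, which makes selenocysteine on its tRNA, rose with ML60218 (0.57). PTRHD1 fell with ML60218 (-0.28). Outside the rule for named genes and picked after their values were seen are QRSL1 and XPOT. QRSL1, a subunit of the mitochondrial enzyme that amidates glutamate to glutamine on tRNA, rose in both (0.41 and 0.25). XPOT, which exports tRNAs from the nucleus, fell after the siRNA (-0.36) and rose with ML60218 (0.15).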

How the data were processed

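Messenger RNA libraries of 12 HEK293T samples were prepared with a stranded mRNA kit, per the labels' protocols. The deposited table gives estimated counts and TPM per transcript for each library, in columns of the kind the program salmon writes, per the file headers. bcl2fastq 2.20, Trim Galore, DESeq2 and the build hg38 are named in the submitters' processing notes. The version of the quantifier and its transcript release are not given in the sources used here. Transcript lengths were deposited by the authors too.

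Rows were matched to GENCODE release 29 by stable transcript identifier (158359 of 194142 rows, 81.6%, holding 91 to 91.6% of the reads). Within each gene the deposited estimated counts were added up, rounded to whole numbers, filtered with filterByExpr (minimum count 10, minimum total 15), scaled by TMM and tested with edgeR 4.0.16 in R 4.3.3 (two-sided quasi-likelihood test, Benjamini-Hochberg over all genes tested, called under 0.05). An SE is the log2 fold change over the square root of the F statistic. The design had assumed counts per gene, and summing was the step this required. The deposited TPM were summed per gene for levels and shares of transcript rows. An exact permutation test of 3 against 3 cannot go below 0.1. Groups came from the sample titles. The pipeline was tested on simulated data. Alternatives were other scalings, DESeq2 1.42.0, no filter, a replicate block, a fit of all 12 libraries, protein-coding rows only, unmatched neighbouring rows, an isoform length offset and leaving out each library. Edge rows, a GC and length trend and the alternatives for shares of rows were added after seeing the data. The members, lists and sequence letters were chosen with earlier results of these data known. All tested members are named. Values by library are given, in each comparison, for the 6 cytosolic and 4 mitochondrial members and any scaffold genes with the largest called change, for members called with opposite signs, and for the 3 members with the lowest p in either direction of the difference. Up to 3 called genes are named from each other list. Some genes the rule would name are not reported here.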

Additional observations from a re-analysis of the deposited data

Results flagged for a closer look

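In the test of the siRNA effect minus the ML60218 effect, 13 cytosolic synthetases, 9 mitochondrial synthetases and 2 scaffold genes passed an adjusted p of 0.05 in edgeR's quasi-likelihood test. They are listed here because a difference between treatments passed its own test. Of 15780 genes tested, 50.9% passed it as well. The largest differences were -1.17 for TARS2, -0.89 for LARS2 and -0.70 for PARS2 on one side, and 0.41 for HARS1 and 0.36 for FARSA on the other. Agent, duration and control differ between the experiments and cannot be told apart.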

How the results depend on the processing

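Of the members called, 14 of 22 after the siRNA, 10 of 24 with ML60218 and 17 of 24 in the difference were called with the same sign in every setting run. The sign turned for RARS1 after the siRNA (0.01 with the GC and length trend removed), AIMP1 after the siRNA (0.07 with edge rows), IARS1 with ML60218 (-0.02 over protein-coding rows), TARS3 with ML60218 (0.00 with the isoform length offset) and the difference for MARS1 (-0.14 with that offset). The cause was not tested. Mitochondrial enzymes called higher after the siRNA went from 0 to 1 with all 12 libraries in 1 fit, with the GC and length trend removed, with neighbouring rows or with no filter, to 2 over protein-coding rows and to 5 under total-count or upper quartile scaling, where cytosolic enzymes also went from 6 to 9 higher and from 10 to 7 lower; those called lower went from 6 to 3 under upper quartile scaling. Cytosolic enzymes called lower with ML60218 went from 4 to 2 with the length offset and to 1 under total-count or upper quartile scaling. Mitochondrial ones called higher with ML60218 went from 4 to 2 with DESeq2 and 1 with the length offset, and those called lower from 5 to 3 over protein-coding rows and 2 under total counts. Cytosolic enzymes with a positive difference went from 3 to 5 under upper quartile scaling. The cytosolic minus mitochondrial median went from -0.024 after the siRNA to 0.050 with the trend removed, 0.017 with the length offset and 0.009 over protein-coding rows. With ML60218 it went from 0.178 to 0.120, 0.078 and 0.134 in the same settings and to 0.135 with neighbouring rows, with or without edge rows. The narrower promoter letters left 0 mitochondrial enzymes. The median levels in DMSO were 102 and 19.1 TPM over protein-coding rows and 134 and 26.7 TPM with neighbouring rows.

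Leaving out 1 library gave 0 to 1 mitochondrial enzymes called higher after the siRNA (1 without siControl replicate 3 or siPOLR3A replicate 2 or 3) and 3 to 6 lower (3 without siControl replicate 2). With ML60218 it gave 1 to 3 mitochondrial enzymes higher (1 without DMSO replicate 1 or 3 or ML60218 replicate 2 or 3, and 2 without DMSO replicate 2) and 2 to 5 lower (2 without DMSO replicate 3 and 3 without ML60218 replicate 2). Cytosolic enzymes called lower with ML60218 ranged from 1 (without DMSO replicate 2 or 3) to 5, and the cytosolic minus mitochondrial median from 0.161 to 0.204. A lower protein-coding share was seen in 1 to 4 mitochondrial enzymes after the siRNA (4 without siPOLR3A replicate 1) and in 1 to 2 with ML60218.

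Libraries with the same replicate number showed no common deviation. Correlations of same-numbered deviations were -0.024, 0.038 and -0.074 in the siRNA experiment and 0.017, 0.066 and -0.054 in the other. The labels do not say how replicates relate, and a shared batch could go unseen in this check. With the replicate number as a block, cytosolic enzymes called lower with ML60218 went from 4 to 2 and mitochondrial ones called higher after the siRNA from 0 to 1. Depth limits the precision of members with few reads, while the values of AIMP1 and VARS2 are limited by rows that could not be matched.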
